A study of Mus musculus with 24 samples.

Results

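The transcripts followed here are 9 genes of tumor necrosis factor (TNF) signalling in mouse macrophages. They were taken as the rows of the deposited count table whose symbol was Tnf, Tnfsf9, Tnfrsf1a, Tnfrsf1b, Tnfrsf11a, Traf1, Traf2, Birc3 or Tnfaip2. All 9 were found among the 11590 genes of the table. The study grew bone marrow cells of male C57BL/6 mice for 7 days with M-CSF, the growth factor that turns marrow precursors into macrophages, and sequenced polyadenylated RNA from 24 libraries. Wild-type (WT) cells and cells lacking GPR35 (KO), a G protein-coupled receptor, were each left untreated, given 10 µM lysophosphatidic acid (LPA), a signalling lipid, or given 10 ng/mL lipopolysaccharide (LPS), a bacterial cell wall component, for 4 h. Each of the 6 groups had 4 libraries, numbered 1 to 4. The question was whether the transcriptional response to LPA needs GPR35. The labels give neither the animals' age nor how Gpr35 was deleted, and they do not say whether the 4 libraries of a group came from separate animals, so the p-values measure the spread between these libraries.

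TNF is made by macrophages as a membrane protein that is cut free and binds TNFR1 (Tnfrsf1a) and TNFR2 (Tnfrsf1b) on other cells or on the same cell. TRAF2 joins both receptors, directly or through adaptors, and brings in the ubiquitin ligases cIAP1 and cIAP2 (Birc3), which build the ubiquitin chains that start NF-kappaB and MAP kinase signalling. Several genes of the pathway are themselves NF-kappaB targets, among them Tnf, Traf1, Birc3 and Tnfaip2.

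Gpr35 was checked first. Its reads were 107, 133, 112 and 111 counts in the untreated WT libraries and 4, 1, 2 and 5 counts in the untreated KO libraries. With LPS the WT libraries held 11, 8, 17 and 10 counts and all 4 KO libraries held 0. No KO library of any treatment held more than 5 counts, and no WT library held fewer than 8. The macrophage markers Adgre1, Csf1r, Cd68, Mertk, Fcgr1, Lyz2, Itgam and Cd14 were all measured and summed to between 30920.5 and 47249.6 CPM (counts per 1000000) in every library. Of the markers of other cells, 8 of 9 neutrophil and granulocyte precursor genes summed to 168 to 537 CPM, and 5 of 6 stromal and endothelial genes to 5.66 to 27.1 CPM. Only 1 of 7 dendritic cell genes (Kmo, 0.569 to 4.06 CPM), 1 of 10 lymphocyte genes (Cd4, 26.6 to 96.6 CPM) and 1 of 6 mast cell and basophil genes (Hdc, 0.905 to 49.5 CPM) were measured. Within WT, Hdc was 1.40 to 2.49 CPM untreated, 2.62 to 4.15 with LPA and 44.0 to 49.5 with LPS, and Cd4 was 75.5 to 92.5 CPM untreated, 57.2 to 68.9 with LPA and 29.2 to 37.6 with LPS. Kmo in WT was 2.07 to 3.74 CPM untreated and 0.569 to 1.39 with LPA, and the stromal and endothelial sum in KO was 5.66 to 12.2 CPM untreated and 12.9 to 27.1 with LPA, in both cases without overlap. With LPA the genotypes were also apart for Hdc (0.905 to 1.57 CPM in KO) and Kmo (1.56 to 2.53 CPM in KO). With LPS in KO, Hdc was 29.96 to 37.0 CPM, Cd4 26.6 to 42.5 and Kmo 1.04 to 1.49. The macrophage sum in WT was 34421 to 36729 CPM untreated, 32001 to 38277 with LPA and 44247 to 45520.2 with LPS. The part of these markers in the results was not tested. Library totals were 32.0 to 46.7 M counts (1 M is 1000000) in WT and 15.2 to 21.5 M in KO, and the labels list 2 sequencing lanes for each WT library and 1 for each KO library. Depth and genotype cannot be told apart. After all libraries were thinned to the smallest total, the number of members called was the same in each of the 9 comparisons made. In these bulk libraries fewer cells of a type and less RNA per cell cannot be told apart.

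The sequences just upstream of the genes were read from RefSeq on GRCm38.p6, the 250 bases before 1 transcript start per gene. A window was found for 8 of the 9 members. Some of these starts lie inside the gene as RefSeq's gene table places it, so that 211 of the 250 bases of the Tnfaip2 window, 50 of Tnfrsf11a, 40 of Traf1 and 35 of Birc3 are within the gene, and 0 for the other 4. The TATA box, TATAAA on either strand, was present in 1 of the 8 windows, that of Tnf, and in 12.4% of 32851 mouse promoter windows. The kappaB consensus, on either strand, was present in 1 of 8, that of Tnfaip2, against 7.25% of all windows. That match, 24 to 15 bases before the transcript start, is in the part of the window inside the gene. In 0 of 8 windows was there an AP-1 motif, TGANTCA on either strand, against 6.75%. A missing match says only that these letters are not in this window. The windows of Tnf (chr17:35202008-35202257, minus strand) and Tnfrsf1b (chr4:145246871-145247120, minus strand) are shown because Tnf had the largest change with LPA and Tnfrsf1b was the one member whose response to LPA was not called different between the genotypes. They run 5′ to 3′ and end at the base before the start. Capitals mark the TATA box, 29 to 24 bases before the start of Tnf.
Tnf: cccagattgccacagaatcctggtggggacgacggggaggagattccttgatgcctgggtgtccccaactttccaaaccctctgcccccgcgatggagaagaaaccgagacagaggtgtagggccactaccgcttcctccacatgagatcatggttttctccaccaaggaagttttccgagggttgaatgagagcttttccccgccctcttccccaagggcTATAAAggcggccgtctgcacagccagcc
Tnfrsf1b: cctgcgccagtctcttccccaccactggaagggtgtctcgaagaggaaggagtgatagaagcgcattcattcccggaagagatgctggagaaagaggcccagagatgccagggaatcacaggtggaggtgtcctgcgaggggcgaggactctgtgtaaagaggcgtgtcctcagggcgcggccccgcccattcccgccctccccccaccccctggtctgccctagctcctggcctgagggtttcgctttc

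With LPA, all 9 genes rose in WT macrophages. The changes ran from 0.22 to 1.93 on the log2 scale with a median of 0.53, and Tnf, Traf1 and Tnfsf9 rose most. This count stands against 44.6% of all genes called with LPA in WT (23.5% rose and 21.1% fell) and a median log2 change of -0.0065 over all genes. The 9 genes were chosen with earlier results of these data known. Their counts, here and below, are therefore descriptions and not tests against the share of all genes. A gene was called when its adjusted p was below 0.05 in edgeR's quasi-likelihood test with Benjamini-Hochberg adjustment over the 11590 genes. In KO macrophages 0 of the 9 were called with LPA, against 2.62% of all genes (1.56% rose and 1.06% fell), and their median change was -0.08. At an unadjusted p below 0.05 there were 2 of the 9 (Tnfrsf1b and Birc3), against 1472 of the 11590 genes. DESeq2 called 0 of the 9 and 461 of all genes. The change in KO was smaller than that in WT, by a test of the difference between the 2 responses, for 8 of the 9, against 28.5% of all genes called in that test (12.7% higher and 15.8% lower in KO).

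**Figure D1:**
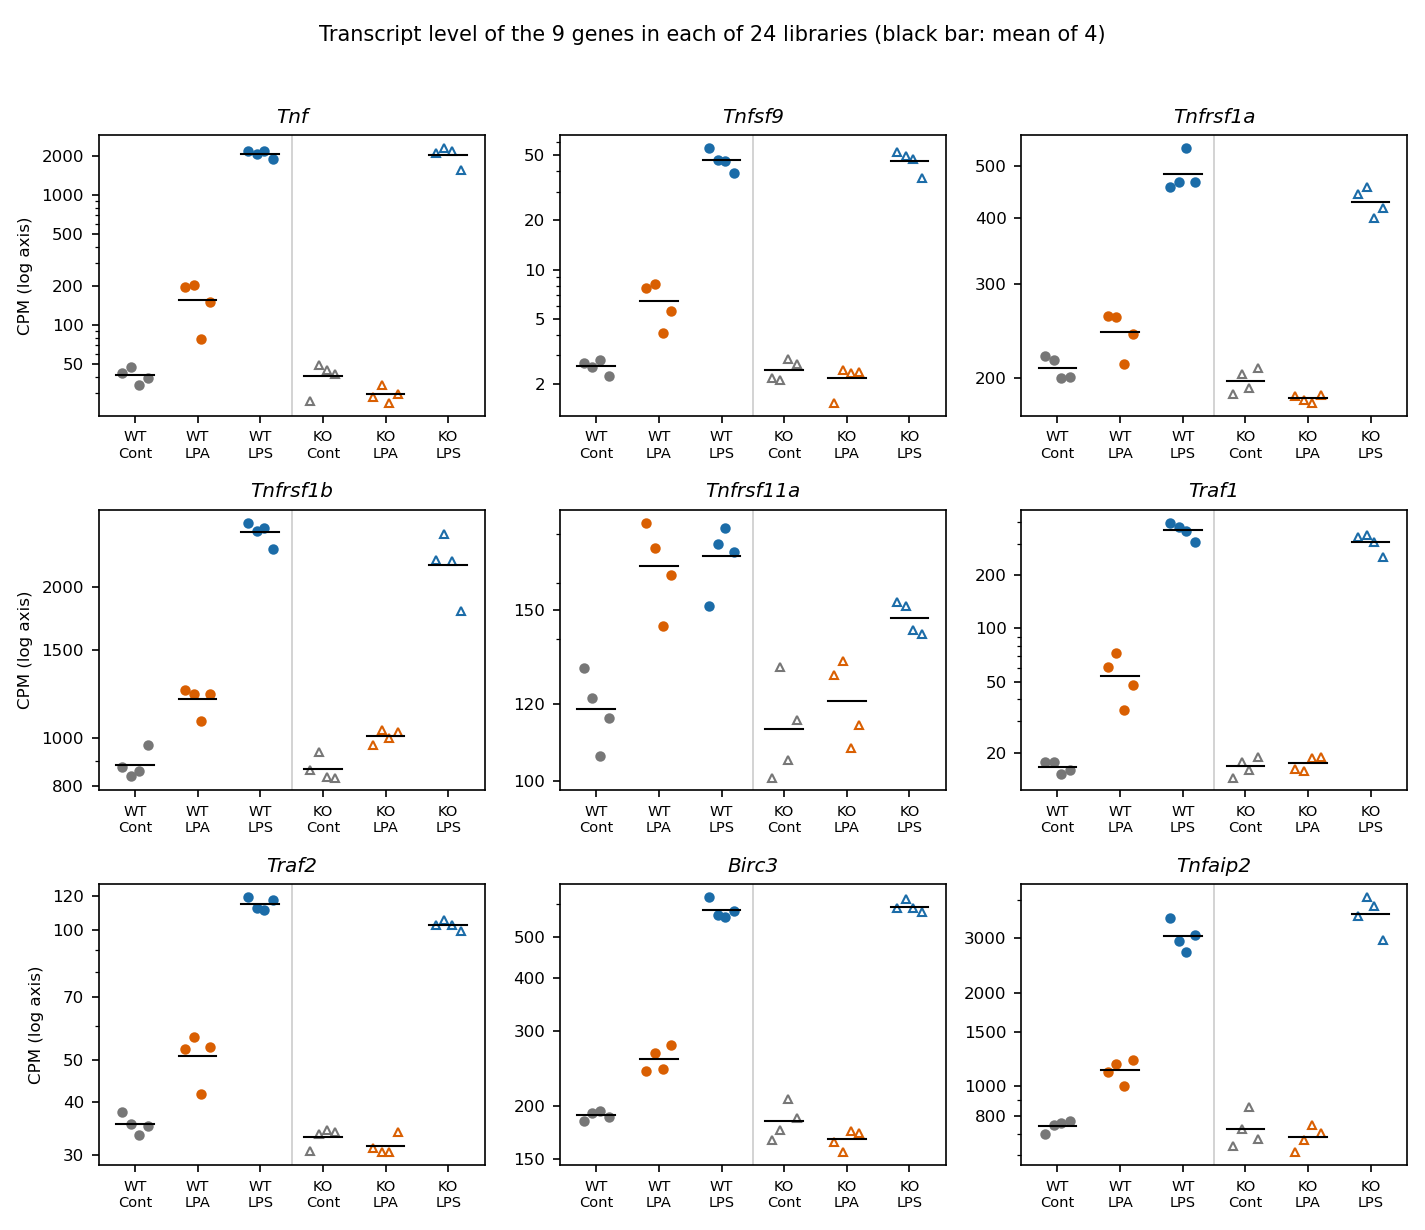
CPM (log axis) of each of the 9 genes in the 24 libraries, by group; filled circles are WT, open triangles are KO, grey is untreated, orange LPA, blue LPS, and the black bar is the mean of 4 libraries. With LPA the WT circles lie above the untreated ones for every gene except Tnfrsf1a, where they overlap, and the KO triangles lie below the WT circles for all 9.

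Tnf, one of the 2 ligands, had the largest change of the 9 genes with LPA in WT and with LPS in each genotype. Tnf (gene ID 21926, chromosome 17, 35199367 to 35202007 on GRCm38.p6) encodes the cytokine itself. Untreated WT libraries held 43.1, 47.6, 34.9 and 39.5 CPM of Tnf, and LPA-treated WT libraries held 195, 204, 78.5 and 149.6 CPM. The LPA libraries all lay above the untreated ones, and number 3 was much the lowest of them. Untreated KO libraries held 26.0, 49.1, 44.8 and 42.4 CPM, and LPA-treated KO libraries held 28.1, 34.9, 25.2 and 29.3 CPM, ranges that overlap. Tnf therefore rose 3.80-fold with LPA in WT (log2 change 1.93 ± 0.23, SE; adjusted p = 2.34e-06). The KO change was -0.47 ± 0.23 (95% confidence interval -0.95 to 0.02; adjusted p = 0.419). The difference between the responses was -2.39 ± 0.32 (adjusted p = 5.12e-05), and with LPA Tnf was 5.35-fold lower in KO than in WT (adjusted p = 1.22e-07).

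Tnf was at its highest with LPS. WT libraries held 2184, 2068, 2200.2 and 1894 CPM and KO libraries 2107, 2307, 2169 and 1552 CPM. The ranges of the 2 genotypes overlapped, far above every LPA library. The rise was 50.5-fold in WT and 50.2-fold in KO, and the difference between the LPS responses was -0.01 ± 0.31 on the log2 scale (95% confidence interval -0.66 to 0.64). In order of mean level, WT with LPS (2087 ± 141 CPM, SD, n = 4) and KO with LPS (2034 ± 332) overlapped. WT with LPA followed at 157 ± 57.5 CPM, overlapping no other group. Untreated WT (41.3 ± 5.36), untreated KO (40.6 ± 10.1) and KO with LPA (29.4 ± 4.08) came last and each overlapped the next in the order.

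Tnfsf9 (gene ID 21950, chromosome 17, 57105287 to 57107758) encodes 4-1BBL, the ligand that costimulates T cells through 4-1BB. It was expressed at a low level, with 2.68, 2.53, 2.80 and 2.25 CPM in untreated WT and 7.77, 8.17, 4.09 and 5.60 CPM in WT with LPA. The 2 ranges did not overlap, and number 3 was again the lowest LPA library. KO libraries held 2.18, 2.11, 2.84 and 2.67 CPM untreated and 1.54, 2.43, 2.34 and 2.38 CPM with LPA, which overlapped. Tnfsf9 rose 2.50-fold with LPA in WT (log2 change 1.32 ± 0.18; adjusted p = 1.02e-05), and the KO change was -0.18 ± 0.25 (adjusted p = 0.858). The responses differed by -1.51 ± 0.31 (adjusted p = 0.00151). With LPS the libraries held 39.0 to 55.4 CPM in WT and 36.5 to 52.2 CPM in KO. Both genotypes rose, by 18.2-fold and 18.8-fold. The annotation places a long noncoding RNA, Gm11110, over exons of Tnfsf9 on the opposite strand, and the strand setting of the counting is not given in the sources used here, so their reads cannot be told apart.

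The 3 receptors changed less with LPA in WT than the 2 ligands. Tnfrsf1a (gene ID 21937, chromosome 6, 125349723 to 125362483) encodes TNFR1, the receptor with a death domain that most cells carry. Untreated WT libraries held 219.7, 216, 199.6 and 201 CPM and WT libraries with LPA 261, 260.3, 213 and 241 CPM. Number 3 with LPA fell inside the untreated range, which made Tnfrsf1a the one member whose WT ranges overlapped. All 8 others had every LPA library above every untreated one, which held for 18.0% of all genes. The change was 0.22 ± 0.07 in WT (adjusted p = 0.00875). In KO the libraries held 186, 203, 192 and 209 CPM untreated and 185, 182, 179 and 186 CPM with LPA. Every LPA value was below every untreated value, by a narrow margin, as for 4.18% of all genes, and the change of -0.11 ± 0.07 did not pass (adjusted p = 0.544). The responses differed by -0.33 ± 0.09 (adjusted p = 0.0110).

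Tnfrsf1b (gene ID 21938, chromosome 4, 145212368 to 145246870) encodes TNFR2, which has no death domain and binds TRAF2 directly. Its 4 values were 874, 841, 857 and 966 CPM in untreated WT and 1248, 1226, 1078 and 1225 CPM in WT with LPA. In KO they were 863, 936, 834 and 833 CPM untreated and 969, 1038, 997 and 1029 CPM with LPA. LPA libraries lay above untreated ones in both genotypes without overlap, which in KO held for 4.65% of all genes. The WT rise was 1.35-fold (log2 change 0.43 ± 0.08; adjusted p = 2.20e-04), and the KO change was 0.22 ± 0.08 (95% confidence interval 0.05 to 0.38), with an adjusted p of 0.193. The difference between the responses, -0.21 ± 0.11, had a 95% confidence interval of -0.45 to 0.02 and an adjusted p of 0.158. With LPA the KO level was still 1.18-fold below WT (adjusted p = 0.0148), a call that was lost at -0.14 (adjusted p = 0.0799) when libraries were scaled to their totals alone. In the order of mean levels KO with LPA came between them, at 1008 ± 31.5 CPM, and overlapped neither WT with LPA (1194 ± 78.0) nor untreated WT (884 ± 56.2).

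Tnfrsf11a (gene ID 21934, chromosome 1, 105780673 to 105849444) encodes RANK, the receptor for RANKL that drives macrophage precursors towards osteoclasts. It held 131, 122, 106 and 116 CPM in untreated WT and 185, 174, 145 and 163 CPM in WT with LPA. KO libraries held 101, 131, 105 and 116 CPM untreated and 129, 133, 108 and 114 CPM with LPA. The WT ranges were apart and the KO ranges overlapped. The WT change was 0.49 ± 0.09 (adjusted p = 1.36e-04), the KO change 0.10 ± 0.09 (adjusted p = 0.747), and the difference -0.39 ± 0.12 (adjusted p = 0.0217). That difference was no longer called when WT with LPA number 1 (adjusted p = 0.0508), untreated WT number 3 (0.0530), untreated KO number 2 (0.0588) or KO with LPA number 3 (0.0529) was left out.

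Under the main scaling, Tnfrsf11a was also the one gene for which LPA and LPS gave similar WT levels. WT libraries with LPS held 152, 175, 183 and 173 CPM, overlapping those with LPA, and KO libraries with LPS held 153, 152, 143 and 142 CPM. The LPS changes were 0.52 ± 0.09 in WT (adjusted p = 7.05e-06) and 0.38 ± 0.09 in KO (adjusted p = 3.84e-04). Their sign depended on the scaling. With library totals alone they were -0.03 (adjusted p = 0.659) and -0.11 (adjusted p = 0.157), a scaling that moves the median of all genes by -0.56 in WT and -0.50 in KO. For the other 8 genes the mean with LPS was 1.98 to 13.3 times the mean with LPA in WT, while for Tnfrsf11a it was 1.02 times. With library totals alone this likeness was lost, since its LPA change in WT stayed at 0.43 or more in every alternative. LPA and LPS were compared with the same untreated libraries.

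The receptors rose with LPS in both genotypes. Tnfrsf1a held 457, 467, 541 and 467 CPM in WT and 443, 456, 400.1 and 416 CPM in KO, rises of 2.31-fold and 2.17-fold over untreated cells. Tnfrsf1b held 2687, 2590.4, 2620.1 and 2375 CPM in WT and 2258, 2550.4, 2247 and 1792 CPM in KO, rises of 2.90-fold and 2.55-fold. The KO values of Tnfrsf1a were all below the WT values with LPS, as for 6.46% of all genes. The differences between genotypes with LPS were -0.17 ± 0.07 for Tnfrsf1a (adjusted p = 0.160) and -0.22 ± 0.08 for Tnfrsf1b (adjusted p = 0.150).

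Among the intracellular partners, Traf1 changed most. Traf1 (gene ID 22029, chromosome 2, 34941750 to 34961812) encodes a TRAF protein without the RING domain of its relatives that pairs with TRAF2. It held 17.7, 17.7, 15.0 and 16.0 CPM in untreated WT and 60.5, 72.3, 34.5 and 47.7 CPM in WT with LPA. KO libraries held 14.4, 17.8, 16.0 and 18.9 CPM untreated and 16.2, 15.8, 18.6 and 18.9 CPM with LPA. All WT libraries with LPA were above the rest, and the KO ranges were nearly the same. Traf1 rose 3.24-fold in WT (log2 change 1.69 ± 0.16; adjusted p = 1.55e-07). The KO change was 0.06 ± 0.17 (95% confidence interval -0.31 to 0.42; adjusted p = 0.957), and the responses differed by -1.64 ± 0.23 (adjusted p = 8.42e-05). With LPS Traf1 held 309 to 395 CPM in WT and 254 to 337 CPM in KO. Those rises were 21.5-fold and 18.3-fold.

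Traf2 (gene ID 22030, chromosome 2, 25517982 to 25546940), the adaptor that docks on the receptors, held 37.8, 35.4, 33.5 and 35.1 CPM in untreated WT and 53.1, 56.4, 41.7 and 53.5 CPM in WT with LPA. KO libraries held 30.7, 33.6, 34.3 and 33.9 CPM untreated and 31.2, 30.5, 30.5 and 34.0 CPM with LPA. Only the WT ranges were apart. The WT change was 0.53 ± 0.07 (adjusted p = 3.07e-06) and the KO change -0.07 ± 0.07 (adjusted p = 0.785), a difference of -0.60 ± 0.10 (adjusted p = 1.88e-04). With LPS Traf2 held 112 to 119 CPM in WT and 99.5 to 106 CPM in KO. All KO libraries were below all WT libraries, as for 6.46% of all genes. That difference, -0.17 ± 0.07, did not pass (adjusted p = 0.177).

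Birc3 (gene ID 11796, chromosome 9, 7847468 to 7873205), the ubiquitin ligase cIAP2, held 184, 192, 195 and 189 CPM in untreated WT and 242, 267, 244 and 278 CPM in WT with LPA. KO libraries held 166, 176, 208 and 188 CPM untreated and 165, 156, 175 and 173 CPM with LPA. The WT ranges were well apart, while the KO ranges overlapped with the LPA libraries towards the lower end. Birc3 rose 1.36-fold in WT (log2 change 0.44 ± 0.06; adjusted p = 1.17e-05). Its KO change of -0.14 ± 0.06 had a 95% confidence interval of -0.27 to -0.01 and did not pass over all genes (adjusted p = 0.322). The responses differed by -0.58 ± 0.09 (adjusted p = 1.05e-04). With LPS it held 559 to 622 CPM in WT and 574 to 616 CPM in KO, rises of 3.05-fold and 3.20-fold.

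Tnfaip2 (gene ID 21928, chromosome 12, 111442450 to 111455018) was first described as a TNF-induced transcript and stands here for the downstream targets. It held 701, 748, 757 and 772 CPM in untreated WT and 1110.4, 1182, 1003 and 1211 CPM in WT with LPA. KO libraries held 640.2, 728, 852 and 673 CPM untreated and 611, 667, 749 and 704 CPM with LPA. As for Traf2 and Birc3, the WT ranges were apart and the KO ranges overlapped. Tnfaip2 changed by 0.60 ± 0.10 in WT (adjusted p = 8.31e-05) and -0.08 ± 0.10 in KO (adjusted p = 0.829), a difference of -0.68 ± 0.14 (adjusted p = 0.00163). With LPS the libraries held 2719 to 3500.2 CPM in WT and 2958 to 4077 CPM in KO. Those rises were 4.11-fold and 4.97-fold, and the difference between them, 0.27 ± 0.14, had a 95% confidence interval of -0.02 to 0.57. An antisense transcript, Gm40578, overlaps its exons, so here too the reads cannot be told apart.

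**Figure D2:**
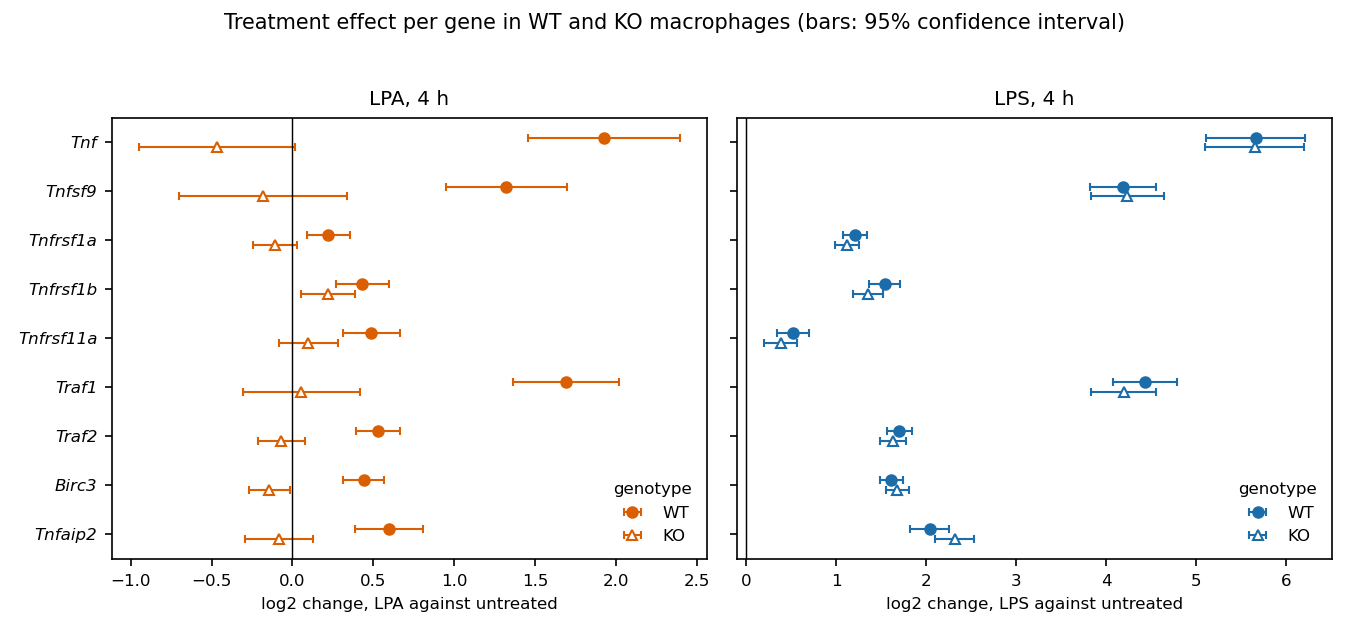
Log2 change with LPA (left) and with LPS (right) against untreated cells of the same genotype, for each gene; filled circles are WT, open triangles KO, and bars are 95% confidence intervals. With LPA the WT intervals lie above 0 and the KO estimates run from -0.47 to 0.22, while with LPS the 2 genotypes nearly coincide, from 0.38 to 5.66.

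The direct comparison of the genotypes separated LPA from the other conditions. With LPA all 9 genes were lower in KO than in WT, with log2 differences from -0.24 to -2.42 and a median of -0.70. Here 50.3% of all genes were called (24.4% higher and 25.9% lower in KO), and the ranges of all 9 members were apart, as for 18.7% of all genes in that direction. In untreated cells 0 of 9 were called, against 0.00863% of all genes, and the differences lay between -0.10 and 0.01. That comparison called Gpr35 alone. At an unadjusted p below 0.05 there were again 0 of 9, against 314 of all genes. DESeq2 called 0 of the 9 and 1 of all genes. With LPS 0 of 9 were called, against 2.85% of all genes (0.690% higher and 2.16% lower in KO). There 5 of 9 had an unadjusted p below 0.05, against 1994 of all genes. DESeq2 called 0 of the 9 and 581 of all genes with LPS. For 2 of the 9 (Tnfrsf1a and Traf2) all KO libraries were below all WT libraries, as for 6.46% of all genes.

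All 9 rose with LPS in each genotype, where 84.2% of all genes were called in WT (40.6% rose and 43.6% fell) and 82.3% in KO (39.3% rose and 43.0% fell). The median rise of the 9 was 1.70 on the log2 scale in WT and 1.68 in KO. The difference between the 2 LPS responses was called for 0 of 9 genes and for 0% of all genes. None of the 9 reached an unadjusted p below 0.05 there, against 698 of all genes, and DESeq2 called 0 of the 9 and 17 of all genes.

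The size of the LPA response differed between WT libraries. With each LPA library set beside the untreated WT library of the same number, all 9 genes were higher in all 4 pairs. Number 3 gave the smallest change for 9 of 9 genes. The shares of all genes with these patterns were not counted, so the patterns are not shown to be particular to the 9. Over all genes 5165 were called with LPA in WT, and 6083 without the WT library with LPA number 3. For Tnf the 4 same-number changes were 2.18, 2.10, 1.17 and 1.92 on the log2 scale, and for Traf1 they were 1.77, 2.03, 1.20 and 1.58. For Tnfsf9 they were 1.53, 1.69, 0.55 and 1.31. Number 3 thus stood apart for the 3 strongest responders. Without the WT library with LPA number 3, the WT changes were 2.15 for Tnf, 1.86 for Traf1 and 1.48 for Tnfsf9, and all 9 genes were still called. In KO the same-number changes of Tnf were 0.11, -0.49, -0.83 and -0.53.

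Levels of different genes were compared only per length, as RPKM (CPM divided by the gene's length in kilobases) from the deposited gene lengths. In untreated WT cells the highest were Tnfaip2 (209 RPKM) and Tnfrsf1b (180.0), followed by Tnfrsf1a (97.0) and Birc3 (67.6). Tnf (25.0) and Tnfrsf11a (23.6) were close to each other, and Traf2 (11.6), Traf1 (7.14) and Tnfsf9 (2.09) were lowest. Tnf thus began below both of its receptors. With LPA it reached 94.9 RPKM in WT, near Tnfrsf1a at 113 and below Tnfrsf1b at 243. With LPS it was the highest of the 9, at 1262 RPKM.

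The shape of each gene's levels over the 6 groups was compared by the root mean square distance between centred log2 CPM means, over 10502 genes with a mean of at least 2 CPM. Smaller values mean closer profiles. Within the 9 genes, Traf2 and Birc3 were closest at 0.0682, then Tnfrsf1a and Tnfrsf1b at 0.140 and Tnfsf9 and Traf1 at 0.146. Tnf and Tnfrsf11a were farthest apart at 2.43. The genes nearest to Tnf were Fpr2 at 0.0722, Fpr1 at 0.152, Cd69 at 0.241 and Cxcl2 at 0.251. Fpr1 and Fpr2 encode formyl peptide receptors, Cd69 an early activation antigen and Cxcl2 a neutrophil chemokine. Nearest to Traf1 were Plpp1 at 0.112, a phosphatase that acts on LPA and related lipids, then Tnfsf9, Procr at 0.161 and Clec4e at 0.167. Nearest to Tnfrsf1b were Tmed5 at 0.0403, Pmepa1 at 0.0525, Lrch1 at 0.0681 and Vps54 at 0.0702. These distances are descriptions over 6 group means.

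Beyond these 9 genes, 69 of 92 further genes of TNF biology, in 7 lists, were in the table. With LPA in WT 30 of the 69 (43.5%) were called, against 44.6% of all genes, and the difference between the responses was called for 26 (37.7%), against 28.5%. In KO 3 of the 69 (4.35%) were called, against 2.62%. The share called in WT was thus near that of all genes. Among 8 other ligands, 2 rose and 4 fell with LPA in WT (75.0% called), with a median of -0.06. Tnfsf12 (TWEAK) fell by 0.44 ± 0.07 on the log2 scale (adjusted p = 2.20e-05), from 69.5 to 51.1 CPM. Tnfsf10 (TRAIL), a death-receptor ligand, rose by 0.67 ± 0.18 (adjusted p = 0.00464) in WT and fell by 0.85 ± 0.21 in KO (adjusted p = 0.0322). The KO call was lost without KO with LPA number 2, 3 or 4 or untreated KO number 4, with adjusted p up to 0.144, and when only the compared groups were fitted (0.151). Tnfsf13 (APRIL) fell by 0.59 ± 0.17 (adjusted p = 0.00768). The ligands thus moved in both directions. In KO 1 of the 8 was called, and the responses differed for 6, 3 of them higher and 3 lower in KO. The difference for Tnfsf13 (0.65 ± 0.24, adjusted p = 0.0499) was lost without any 1 of 13 of the 16 libraries.

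Of 13 other receptors, 4 rose and 1 fell with LPA in WT, and the median was 0.17. The share called, 38.5%, was below the 44.6% of all genes. Cd40, which receives T cell help, had means of 47.6 CPM untreated and 90.9 CPM with LPA in WT, and of 41.0 and 25.1 CPM in KO. It rose by 0.94 ± 0.14 in WT (adjusted p = 2.62e-05) and fell by 0.70 ± 0.15 in KO (adjusted p = 0.00942), a KO call lost when only the compared groups were fitted (adjusted p = 0.0745). The responses differed by -1.64 ± 0.20 (adjusted p = 1.80e-05), in the same direction as for Tnf. Fas, the death receptor for Fas ligand, rose by 0.89 ± 0.11 (adjusted p = 1.98e-06), and its KO change was -0.09 ± 0.12. Relt fell by 1.07 ± 0.22 in WT (adjusted p = 6.60e-04), from a low mean of 6.88 CPM to 3.27 CPM. Its KO change was -0.36 (adjusted p = 0.585), and the difference between its responses, 0.72, was not called (adjusted p = 0.0942). That difference was called with libraries paired by number within genotype (adjusted p = 0.0143) and without KO with LPA number 2 (0.0319). Tnfrsf21 (DR6) had a change of -0.04 ± 0.07 in WT.

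The proteins that assemble on the receptors form the longest list by genes measured. Of 20 receptor complex and ubiquitin genes, 6 rose and 1 fell in WT, 0 were called in KO, and the responses differed for 5, all lower in KO. These shares, 35.0% in WT and 25.0% for the difference, were below those of all genes given above. Tnip1, which binds ubiquitin chains and A20, rose by 0.85 ± 0.09 (adjusted p = 4.17e-07). Tnfaip3, the ubiquitin-editing inhibitor A20, rose by 0.74 ± 0.11 (adjusted p = 1.92e-05), and its responses differed by -1.04 ± 0.15. Chuk (IKK alpha) rose by 0.36 ± 0.06 (adjusted p = 4.35e-05). An inhibitor of the pathway and one of its kinases were thus among the genes that rose. Of 9 other TRAF genes and TRAF-binding proteins, 3 rose and 1 fell in WT, 44.4% called against 44.6% of all genes. Tank, a TRAF-binding adaptor, rose by 0.71 ± 0.10 (adjusted p = 1.88e-05), Traf3 by 0.57 ± 0.09 (adjusted p = 4.20e-05) and Trafd1 by 0.21 ± 0.07 (adjusted p = 0.0177). The Trafd1 call was lost without WT with LPA number 2 (adjusted p = 0.0569).

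Of 8 genes of TNF-driven cell death, 3 rose and 0 fell in WT, 37.5% called against 44.6% of all genes. Cflar, which restrains caspase-8, rose by 0.55 ± 0.08 (adjusted p = 2.14e-05), Mlkl, the effector of necroptosis, by 0.62 ± 0.13 (adjusted p = 7.53e-04) and Bid, a caspase-8 substrate, by 0.39 ± 0.09 (adjusted p = 0.00183). The 3 comprise an inhibitor and 2 effectors. Of 7 genes of TNF synthesis and shedding, 2 rose and 1 fell (42.9% called). Adam17, the protease that cuts TNF from the membrane, rose by 0.39 ± 0.05 (adjusted p = 1.16e-05), with means of 655 and 856 CPM in WT and of 638 and 589 CPM in KO. Its partner Rhbdf2 (iRhom2), which carries Adam17 to the surface, rose by 0.44 ± 0.10 (adjusted p = 0.00201). The difference between the Rhbdf2 responses (-0.48 ± 0.15, adjusted p = 0.0224) was lost without WT with LPA number 1 or 2. Litaf fell by 0.37 ± 0.05 (adjusted p = 1.23e-05). Of 5 other genes named as TNF-induced, 2 rose (Tnfaip3 and Tnfaip1) and 1 fell (Tnfaip8l2), 60.0% called. Tnfaip8 had a change of 0.10 ± 0.05. The rise of Tnfaip1 (0.16 ± 0.05, adjusted p = 0.0132) was lost without WT with LPA number 1 or 2 or untreated WT number 4. Its call was also lost with library totals alone and when only the compared groups were fitted (adjusted p = 0.0828).

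**Figure D3:**
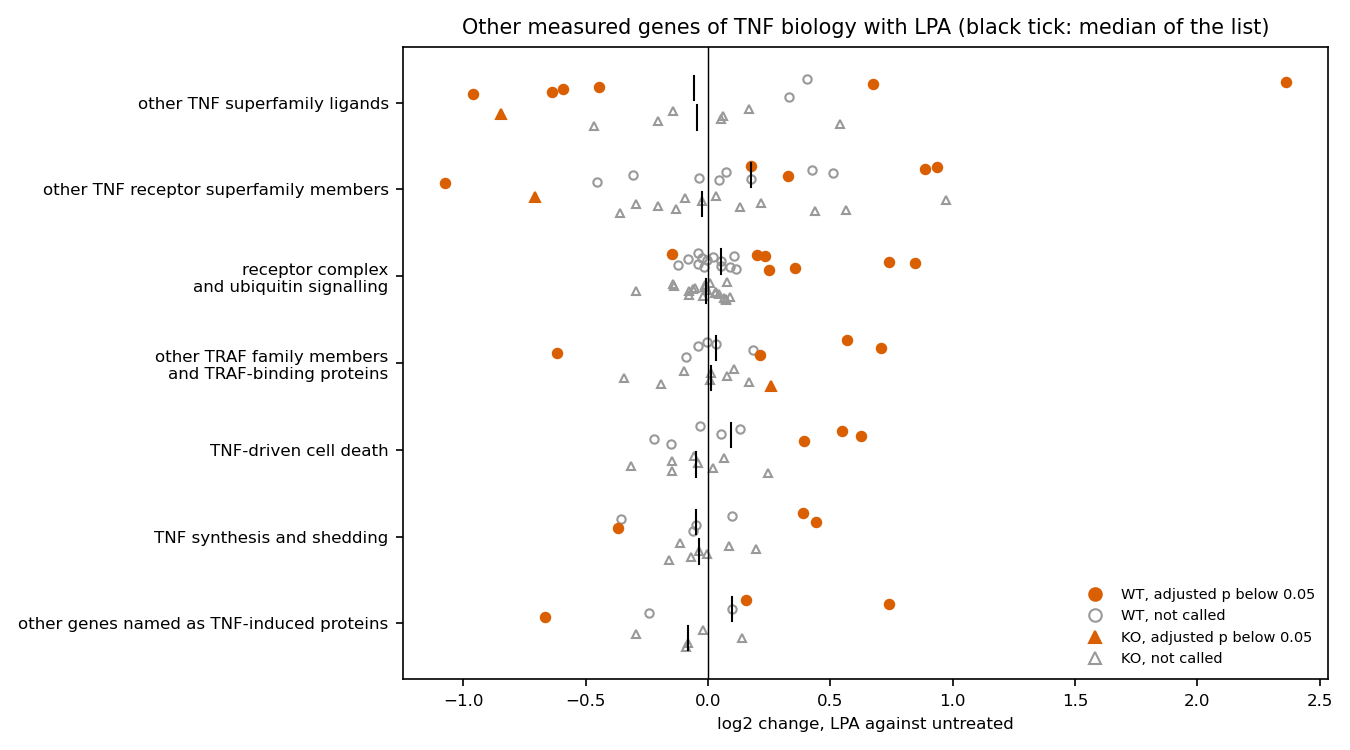
Log2 change with LPA against untreated cells for the measured genes of 7 lists of TNF biology; circles are WT, triangles KO, filled orange marks an adjusted p below 0.05 and the black tick is the list's median. WT points spread to both sides of 0 with 31 filled (Tnfaip3 is drawn in 2 lists), while 3 KO triangles are filled (Tnfsf10, Cd40 and Map3k14, the last named after its values were seen).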

How the data were processed

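Polyadenylated RNA of mouse macrophages was sequenced in 24 libraries, 4 in each of 6 groups. The authors deposited whole-number counts per gene, with a gene length per row as the other numeric column. STAR 2.5.2a and the mm10 build are named in the submitters' processing notes. The libraries were prepared with a stranded kit, per the labels' protocols. How reads were assigned to genes, with which annotation and on which strand is not given in these sources. The 9 genes without a symbol stayed in the tests.

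The 11590 genes, all kept by filterByExpr and each with a total of at least 170 counts, were fitted at once in edgeR 4.0.16 (R 4.3.3, limma 3.58.1) with TMM factors and a mean per group, leaving 18 residual degrees of freedom. The quasi-likelihood test was adjusted by Benjamini-Hochberg over all genes, with calls at 0.05. Standard errors are the log2 change divided by the root of its F statistic, and CPM and RPKM use TMM-scaled totals. Scripts were tested on simulated data. DESeq2 1.42.0, other scalings, filters, fits and left-out libraries were the alternatives. The named genes are the 9 members, Gpr35, and from each pathway list, among genes with a mean of at least 1 CPM, up to 3 with the smallest adjusted p for LPA in WT, up to 2 for the LPA difference and up to 2 for LPS in WT. For likeness, the 4 nearest genes to Tnf, Traf1 and Tnfrsf1b are named. The members and lists were chosen with earlier results of these data known. Positions come from RefSeq's gene table, overlapping exons from GENCODE M21 (both GRCm38), and no library was left out. All 36 pairs of replicates differed by more than sampling noise (chi-square per degree of freedom 4.11 to 77.4).

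Same-numbered libraries deviated together between untreated and LPA in WT (correlations 0.211 to 0.626) and in KO (0.280 to 0.772), and in KO between untreated and LPS (0.196 to 0.511). There the numbers were taken to pair the libraries, although untreated KO number 1 correlated best with another number, both with LPA and with LPS. The standard errors and p-values of the main fit leave this pairing out. Between untreated and LPS in WT not every pair exceeded 0.1 (0.0938 to 0.264). Between genotypes 2 of 36 pairs did, so across genotypes libraries share only a number. A further gene of the macrophage marker list is not reported here, and the macrophage sums leave it out.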

Additional observations from a re-analysis of the deposited data

Results flagged for a closer look

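Of 54 sets of 4 libraries (9 genes in 6 groups), 3 had a library far from the other 3, where chance flags about 1 in 20. Tnfsf9 was at 1.54 CPM in KO with LPA number 1, against 2.34 to 2.43 in the others. Tnfrsf1a was at 541 CPM in WT with LPS number 3, against 457 to 467. Tnfrsf1b was at 1078 CPM in WT with LPA number 3, against 1225 to 1248, in the library that gave the smallest LPA change for all 9 genes.

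The response to LPA differed between KO and WT, by the test of the difference, for 8 genes. On the log2 scale the KO response was lower by the following differences: -2.39 for Tnf, -1.51 for Tnfsf9, -0.33 for Tnfrsf1a, -0.39 for Tnfrsf11a, -1.64 for Traf1, -0.60 for Traf2, -0.58 for Birc3 and -0.68 for Tnfaip2.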

How the results depend on the processing

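Of 1440 alternative values for the 81 member values, 1397 kept their direction and side of the threshold, 5 lost a call, 1 gained one and 37 changed sign. Among those that changed sign, Tnfrsf11a with LPS in WT and in KO also lost its call, with library totals alone. For 88 pathway values the 1584 alternatives gave 1532, 30, 18 and 4. Among the last, Traf3 with LPS in WT also gained a call, with library totals alone. With a replicate block for the pairing, 9, 0 and 8 members were called for LPA in WT, LPA in KO and their difference, as without it. The block gave 6150, 554 and 4328 of all genes. For KO against WT with LPS a block by number gave 0 genes. It matches libraries of the 2 genotypes that share only a number, so that 0 cannot be read as an effect of pairing. The same holds for its Tnfsf9 value below. All genes called with LPA in KO (304) became 461 in DESeq2 and 168 to 310 without 1 library (190, 168 and 184 without untreated KO 3, KO with LPA 3 and untreated KO 4). KO against WT with LPS (330) became 131 in a fit of the compared groups, 165 thinned, 581 in DESeq2 and 65 to 577 without 1 library (WT with LPS 3 and 1; 160 without WT 2, 74 and 190 without KO 3 and 4); 0 to 1 members were then called, Tnfrsf1b at -0.29 (adjusted p = 0.0426) without KO with LPS 2. The LPS difference (0 genes) became 17 in DESeq2 and 0 to 1 without 1 library. Without 1 library, 3792 to 6083 genes were called for LPA in WT, 2259 to 4632 for the LPA difference (7 to 8 members) and 4790 to 6624 for KO against WT with LPA; the lowest came without WT with LPA 2 and the highest without WT with LPA 3. Library totals alone called 8 members for LPS in each genotype and for KO against WT with LPA. They turned Tnfrsf11a with LPS to -0.0342 in WT and -0.11 in KO, Traf3 with LPS in WT to -0.39, Tnfaip1 with LPA in KO to 0.0025, Tnf and Tnfsf9 in KO against WT with LPS to 0.0455 and 0.0665, and the Tnf LPS difference to 0.0501. The share of called genes that rose moved from 52.7% to 40.3% for LPA in WT, 48.3% to 23.3% for LPS in WT, 47.7% to 24.1% for LPS in KO, 48.4% to 67.4%, 24.2% to 78.2% for KO against WT with LPA and with LPS, and 44.6% to 59.9% for the LPA difference. Thinning turned Tnfsf9 and Traf1 in untreated KO against WT to 0.0367 and -0.0650, and Tnfsf9 in KO against WT with LPS to 0.0483, which the compared groups and the block gave as 0.0070 and 0.0045. The compared groups gave 0.0079 for the Tnf LPS difference. Leaving out 1 library changed the sign of these uncalled values: with LPA in KO, Traf1 (-0.0113 to 0.12), Tnfaip2 (-0.14 to 0.0044), Tnip1 (-0.0151 to 0.0841) and Rhbdf2 (-0.0828 to 0.0084); untreated KO against WT, Tnf (-0.13 to 0.14), Tnfrsf1b (-0.0684 to 0.0160), Traf1 (-0.0517 to 0.0790), Birc3 (-0.11 to 0.0042) and Tnfaip2 (-0.13 to 0.0126); KO against WT with LPS, Tnf (-0.10 to 0.0727) and Tnfsf9 (-0.0941 to 0.0824); and the LPS difference, Tnf (-0.17 to 0.10) and Tnfsf9 (-0.0319 to 0.14). Where not stated, the cause was not tested. Tnfsf9 rested on 1.54 to 2.84 CPM in the untreated groups and KO with LPA.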

Other observations

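With LPS the other genes of TNF biology moved in both directions. In WT 59 of the 69 (85.5%) were called and in KO 60 (87.0%), near the 84.2% and 82.3% of all genes. Of 20 receptor complex and ubiquitin genes, 15 rose and 1 fell in WT, and in KO the counts were also 15 and 1, 80.0% called in each. Of 13 other receptors 5 rose and 6 fell in each genotype, and of 8 other ligands 4 rose and 4 fell. Cd40 rose by 4.52 ± 0.16 on the log2 scale in WT and 4.58 ± 0.16 in KO, reaching 1089.8 and 982 CPM. Tnfaip3 rose by 3.00 ± 0.12 and 2.99 ± 0.12, and Tnfsf10 by 3.04 ± 0.18 and 2.92 ± 0.19. Tnfsf12 fell by 2.02 ± 0.07 and 1.81 ± 0.07, and Tnfrsf21, whose change with LPA in WT was -0.04, fell by 1.42 ± 0.07 and 1.36 ± 0.08. The difference between the LPS responses was called for 0 genes of these lists. Under library totals alone the counts with LPS differ, since that scaling lowers the median of all genes, as given above.

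Tnfsf4 (OX40L), chosen here after its values were seen because it had the largest LPA change of the listed genes, rose by 2.36 ± 0.36 in WT (adjusted p = 2.81e-05), with a difference between the responses of -2.51 ± 0.63 (adjusted p = 0.00609). Its mean over the libraries was below the 1 CPM required of the named pathway genes, so these changes rest on few reads. Tnfsf14 (LIGHT), singled out in the same way, fell by 0.96 ± 0.29 in WT (adjusted p = 0.00982), and its difference was 1.50 ± 0.40 (adjusted p = 0.00837).

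The ratio of Tnfrsf1b to Tnfrsf1a per length, also chosen after the values were seen, was 1.86 ± 0.183 (SD, n = 4) in untreated WT, 2.15 ± 0.0841 with LPA and 2.34 ± 0.202 with LPS. In KO it was 1.93 ± 0.133 untreated, 2.42 ± 0.0863 with LPA and 2.26 ± 0.269 with LPS. In KO with LPA the 4 libraries (2.30 to 2.50) lay above the untreated ones (1.75 to 2.03). A two-sided exact permutation test over the 70 arrangements gave p = 0.0286, the smallest it can give, for LPA in KO, for LPS in WT and for KO against WT with LPA. The same exact test gave p = 0.0857 for LPA in WT, 0.114 for LPS in KO, and 0.571 and 0.714 for KO against WT untreated and with LPS. Adjusted over the 7 comparisons made, the lowest value was 0.0667 in the exact test, and no comparison passed. With 4 libraries per group, none could pass unless most of the 7 gave the smallest possible p. The adjusted values therefore decide little.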
